A study of Mus musculus with 16 samples.

Results

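The genes described here encode the major histocompatibility complex class II molecules of the mouse and the proteins that load peptide onto them. They are 10 genes of 22012 genes or unnamed features tested, chosen by symbol: H2-Aa, H2-Ab1, H2-Eb1, Cd74, Ciita, H2-DMa, H2-DMb1, H2-DMb2, H2-Oa and H2-Ob. The arrays carry 14 probes for them, and all 10 genes have at least 1 probe that passed the filter on dim probes. The data are 16 single-colour microarrays of cells sorted from untreated C57BL/6 mice, with 4 arrays per group. CCR2+ Mac, MHC-IIHi Mac and MHC-IIlo Mac are heart macrophages, all gated as live CD45+ MerTK+ CD64+ cells without surface Ly6C. The CCR2+ cells were CCR2 high and MHC class II high, the MHC-IIHi cells were CCR2 negative, class II high and low for CD11c, and the MHC-IIlo cells were CCR2 negative, CD11c negative and low for class II. Ly6cHi Mono are monocytes from blood. The sort therefore used class II protein at the cell surface, so that transcript differences between the MHC-IIlo group and the other macrophages are a check of that gate. Because the CCR2+ and MHC-IIHi groups were both gated as class II high, their likeness and their excess over monocytes also depend in part on it. The labels do not say whether the 4 arrays of a group come from separate mice, and the p-values measure the spread between these arrays only.

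A class II molecule is a pair of an α and a β chain that displays peptides from endosomes to CD4+ T cells. The invariant chain, encoded by Cd74, escorts the pair to endosomes and leaves a fragment in its groove, which H2-DM (H2-DMa with H2-DMb1 or H2-DMb2) exchanges for peptide, while H2-O (H2-Oa with H2-Ob) restrains H2-DM, chiefly in B cells. Ciita is the coactivator that switches these genes on together, by docking on factors bound at the X and Y boxes of their promoters. Mice of the C57BL/6 background lack a working H2-Ea, so their H2-Eb1 transcript has no partner chain at the surface.

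RefSeq promoter windows of build GRCm38.p6, which run from 250 bases before to 50 bases after the annotated start, were matched for 7 of the 10 members and for H2-Eb2, a neighbouring class II β gene. They are shown because all of these genes lie on chromosome 17 and are class II or peptide loading genes, while they were not all called in the same group comparisons. Unequal movement was tested only for H2-DMb2 against H2-DMb1, where no group pair passed after adjustment. Capitals mark the letters AACNNATG, part of the X box, and TGATTGG, part of the Y box, both chosen after the windows had been read.

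H2-Aa, chr17:34287863-34287905, minus strand: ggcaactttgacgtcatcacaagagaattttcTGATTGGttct

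H2-Eb1, chr17:34305774-34305816, plus strand: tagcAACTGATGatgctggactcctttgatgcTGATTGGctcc

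H2-DMb1, chr17:34153095-34153138, plus strand: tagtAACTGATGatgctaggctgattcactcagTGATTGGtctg

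H2-DMb2, chr17:34145124-34145167, plus strand: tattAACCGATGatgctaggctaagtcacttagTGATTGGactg

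H2-Oa, chr17:34092302-34092344, plus strand: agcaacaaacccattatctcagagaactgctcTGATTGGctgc

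H2-Ob, chr17:34238816-34238856, plus strand: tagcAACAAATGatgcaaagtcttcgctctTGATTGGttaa

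H2-Eb2, chr17:34325541-34325583, plus strand: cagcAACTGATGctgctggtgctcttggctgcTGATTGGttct

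The Y letters were found in 6 of the 7 members with a window, and the X letters upstream of them in 4 members. Searched on both strands, AACNNATG occurred in 8.86% of 32851 promoter windows of the same length and TGATTGG in 7.82%. An AACNNATG followed by a TGATTGG after 10 to 30 bases, on the same strand, occurred in 15 windows, or 0.0457% of all. Among those 15 were the windows of H2-Eb1, H2-DMb1, H2-DMb2, H2-Ob and H2-Eb2. These letters were not found in the 2 windows of H2-DMa, and H2-Aa and H2-Oa held the Y letters alone. In H2-DMb1 and H2-DMb2 the gap between the X and the Y letters was 21 bases in each, and the best ungapped alignment of their windows had 156 of 271 bases identical. A match of letters is a description and does not show that a factor was bound in these cells.

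**Figure D1:**
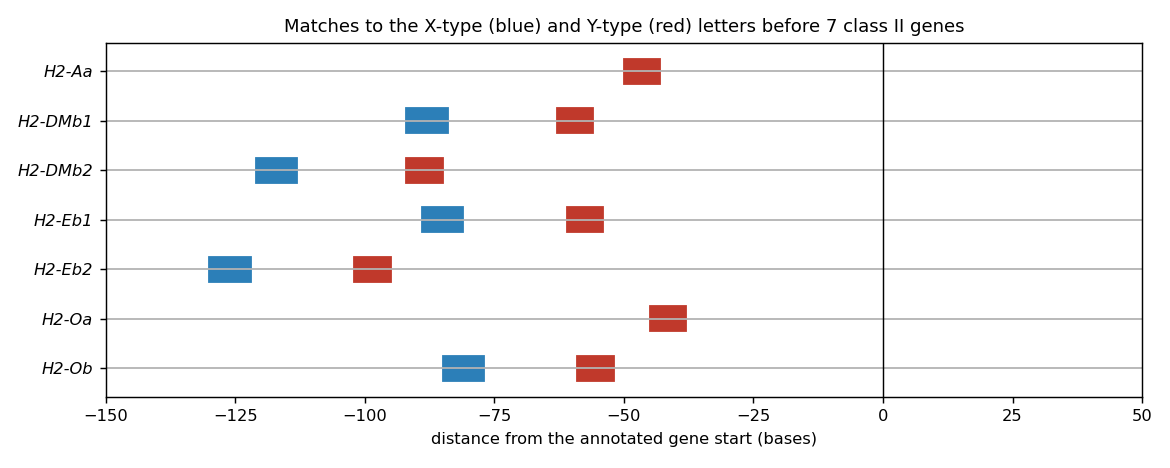
Positions of the letters AACNNATG (X type, blue) and TGATTGG (Y type, red) before 7 class II genes, in bases from the annotated start. Both are present before H2-DMb1, H2-DMb2, H2-Eb1, H2-Eb2 and H2-Ob, and the X letters start between positions -130 and -85.

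Levels are given as the log2 of the scanner's processed signal minus the log2 of the 75th percentile of that array, so that 0 is the 75th percentile. A gene was read from its brightest probe, and levels of different genes were not compared. The 75th percentile was 819 to 996 on the monocyte arrays and 941 to 1670 on the macrophage arrays, and 52.8% to 69.3% of spots were well above background. No spot was saturated. Arrays with the same replicate number shared a slide, with 1 array of each group on every slide. Each group always had the same position on the slide, so that position and group cannot be told apart. Differences were tested with limma over all 22012 features, with Benjamini-Hochberg adjustment, and "passed" below means an adjusted p under 0.05. Of the genes behind the gate, Ccr2 and Mertk followed the labels, and others did so in part. Ccr2 was 3.86 ± 0.32 (SE) log2 units higher in CCR2+ than in MHC-IIHi macrophages and 4.47 ± 0.32 higher than in MHC-IIlo macrophages. Itgax, which encodes CD11c, had means of 1.51 in CCR2+, -0.34 in MHC-IIHi and -2.32 in MHC-IIlo macrophages, and its difference between the MHC-IIHi and MHC-IIlo groups did not pass (adjusted p = 0.484). Mertk exceeded background on 12 of 12 macrophage arrays and on 0 of 4 monocyte arrays. Ly6c1 was above background on all arrays, with means of 2.65 in CCR2+, 1.32 in MHC-IIHi and 1.44 in MHC-IIlo macrophages and 5.77 in monocytes, and passed as higher in CCR2+ than in MHC-IIHi macrophages (adjusted p = 0.0309). Fcgr1, which encodes CD64, had means of 2.95 to 3.13 in the macrophages and 2.82 in monocytes. Ptprc, which encodes CD45, was 0.91 ± 0.18 higher in CCR2+ than in MHC-IIlo macrophages (adjusted p = 0.0119).

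**Figure D2:**
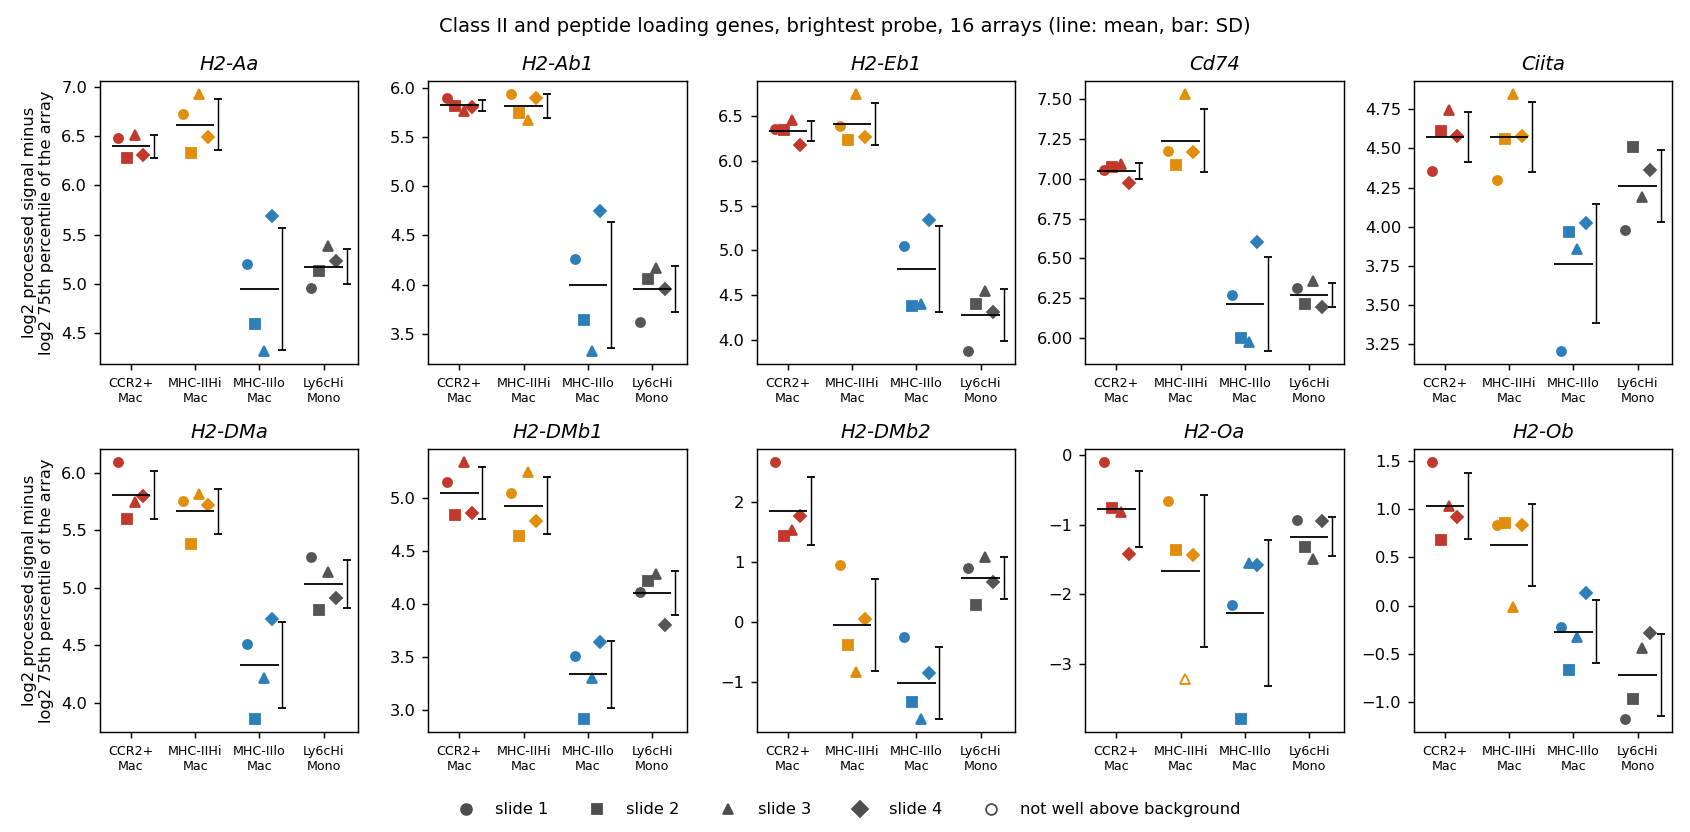
Level of each of the 10 genes on each of 16 arrays (log2 processed signal minus log2 75th percentile of the array), by group; horizontal lines are means, bars are SDs over 4 arrays and symbols mark the slide. The CCR2+ and MHC-IIHi points overlap for every gene but H2-DMb2, and the MHC-IIlo points are widely spread for H2-Aa, H2-Ab1, H2-Eb1 and Cd74.

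The genes of the class II chains and the invariant chain were higher in CCR2+ and MHC-IIHi macrophages than in MHC-IIlo macrophages and monocytes. H2-Aa, H2-Ab1, H2-Eb1 and Cd74 each passed in all 4 of those comparisons, by 1.71-fold to 4.36-fold. Neither the 2 class II high macrophage groups nor the 2 lower groups differed past the threshold in any of the 4 genes. H2-Eb1 was 0.51 ± 0.23 (SE) log2 units higher in MHC-IIlo macrophages than in monocytes (limma adjusted p = 0.148), and positive on 2 of 4 slides. That difference passed under 2 of 26 alternatives, normexp background and quantile normalization (adjusted p down to 0.0163).

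H2-Aa, the α chain of the I-A molecule, read 6.49, 6.28, 6.51 and 6.32 in CCR2+ macrophages and 6.73, 6.33, 6.93 and 6.49 in MHC-IIHi macrophages (replicates 1 to 4). It read 5.20, 4.59, 4.31 and 5.69 in MHC-IIlo macrophages and 4.95, 5.13, 5.38 and 5.23 in monocytes. All 8 arrays of the class II high macrophages lay above all 8 others, and the lower groups overlapped. The MHC-IIHi group exceeded the MHC-IIlo group by 1.67 ± 0.26 log2 units (SE), or 3.19-fold (limma adjusted p = 0.0186), and the monocytes by 1.45 ± 0.26 (adjusted p = 0.00068). The first of these calls was lost under 7 of 26 alternatives, with adjusted p up to 0.496. The CCR2+ group exceeded the MHC-IIlo group by 1.45 ± 0.26 (adjusted p = 0.00451), a call lost in a fit of the 2 groups alone (adjusted p = 0.0589). Between CCR2+ and MHC-IIHi macrophages the difference was -0.22 ± 0.26 (adjusted p = 0.916).

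H2-Ab1, the I-A β chain, read 5.90, 5.82, 5.76 and 5.80 in CCR2+ and 5.94, 5.74, 5.68 and 5.89 in MHC-IIHi macrophages. The values were 4.26, 3.64, 3.32 and 4.75 in MHC-IIlo macrophages and 3.62, 4.06, 4.17 and 3.96 in monocytes. The class II high arrays again lay above all others. They were also close together, with an SD of 0.06 in the CCR2+ group and 0.12 in the MHC-IIHi group, against 0.64 in the MHC-IIlo group. The difference between MHC-IIHi and MHC-IIlo macrophages was 1.82 ± 0.25, or 3.52-fold (limma adjusted p = 0.0172), and CCR2+ macrophages exceeded MHC-IIlo macrophages by 1.83 ± 0.25 (adjusted p = 0.000572). The first of these calls was lost under 5 of 26 alternatives, with adjusted p up to 0.397.

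A second H2-Ab1 probe overlaps the first by 51 bases and differs from it there at 1 base, T51C, counted from the 5′ end of the brighter probe. The last 30 bases of the brighter probe and the matching stretch of the dimmer probe are shown because the pair reads 1 transcript with 2 designed oligos, and the capital is the differing base.

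H2-Ab1 brighter probe: agattacaaataaacgagacTcagactctg

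H2-Ab1 dimmer probe: agattacaaataaacgagacCcagactctg

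The dimmer probe gave the same order of groups, with means of 5.59 in CCR2+, 5.54 in MHC-IIHi, 3.58 in MHC-IIlo and 3.46 in monocytes. Its difference between MHC-IIHi and MHC-IIlo macrophages was 1.95 ± 0.23 (SE), close to that of the brighter probe.

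H2-Eb1, the I-E β chain, read 6.35, 6.35, 6.45 and 6.18 in CCR2+ and 6.39, 6.23, 6.75 and 6.27 in MHC-IIHi macrophages. It read 5.05, 4.37, 4.41 and 5.33 in MHC-IIlo macrophages and 3.87, 4.40, 4.55 and 4.31 in monocytes. The class II high arrays lay above all others. The probe for H2-Ea was not well above background on any of the 16 arrays. H2-Eb1 exceeded the monocytes by 2.13 ± 0.23, or 4.36-fold, in MHC-IIHi macrophages (limma adjusted p = 6.41e-06), and by 2.05 ± 0.23, or 4.14-fold, in CCR2+ macrophages (adjusted p = 1.36e-05). The MHC-IIHi group exceeded the MHC-IIlo group by 1.62 ± 0.23 (adjusted p = 0.0172), a call lost under 7 of 26 alternatives (adjusted p up to 0.397). H2-Eb2 behaved differently: it was 1.28 ± 0.43 lower in CCR2+ macrophages than in monocytes (adjusted p = 0.0444) and passed in no other comparison.

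Cd74, the invariant chain, read 7.05, 7.07, 7.09 and 6.97 in CCR2+ and 7.17, 7.08, 7.53 and 7.17 in MHC-IIHi macrophages. It read 6.27, 6.00, 5.97 and 6.61 in MHC-IIlo macrophages and 6.31, 6.22, 6.36 and 6.20 in monocytes. The groups separated as they did for the class II chains. The difference between MHC-IIHi and MHC-IIlo macrophages was 1.03 ± 0.17, or 2.04-fold (limma adjusted p = 0.0363), and that between MHC-IIHi macrophages and monocytes was 0.97 ± 0.17 (adjusted p = 0.000673). The first of these calls was lost under 18 of 26 alternatives, with adjusted p from 0.015 to 0.693, although the difference itself stayed between 0.87 and 1.16. The CCR2+ group exceeded the MHC-IIlo group by 0.84 ± 0.17 (adjusted p = 0.0135), a call lost without MHC-IIlo replicate 3, under median scaling and in a fit of the 2 groups alone (adjusted p up to 0.092).

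In MHC-IIlo macrophages replicate 4 was the highest of the 4 arrays for 8 of the 10 genes. Replicates 2 and 3 were the lowest for 5 and 4 genes. For H2-Aa the group spanned 4.31 to 5.69, a wider range than the 4.95 to 5.38 of the monocytes. Sorted populations are compared here as bulk RNA, in which fewer cells of a type and less RNA per cell cannot be told apart.

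Ciita, the coactivator, had its lowest mean in MHC-IIlo macrophages. It was read from a single probe, whose sequence is shown because it is mostly a simple repeat. Its last 30 bases, positions 31 to 60, are an unbroken 5-base repeat, and 54 of its 60 bases are A or C. Bases 16 to 45 are shown, with the longest unbroken run of the repeat in capitals. The small letters before the g hold the same repeat.

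Ciita probe: aaacaaaacaaaacgAAACAAAACAAAACA

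Probes of 3 other genes on the array share a stretch of at least 20 bases with it, and all 3 were well above background on all 16 arrays. How much of the signal comes from Ciita RNA was not tested. The probe read 4.36, 4.61, 4.74 and 4.58 in CCR2+, 4.30, 4.56, 4.85 and 4.58 in MHC-IIHi, 3.20, 3.97, 3.86 and 4.02 in MHC-IIlo macrophages, and 3.98, 4.51, 4.19 and 4.36 in monocytes. Replicate 1 was the lowest array in every group, and the MHC-IIlo arrays lay below all CCR2+ and MHC-IIHi arrays. The CCR2+ group exceeded the MHC-IIlo group by 0.81 ± 0.21, or 1.75-fold (limma adjusted p = 0.0498), a call lost under 19 of 26 alternatives, including all 16 that leave out 1 array. The equally large difference between MHC-IIHi and MHC-IIlo macrophages, 0.81 ± 0.21, did not pass (adjusted p = 0.36), but did with the replicate number as a block (adjusted p = 0.0316). The block also gave an adjusted p of 0.0137 for the difference of -0.50 ± 0.21 between MHC-IIlo macrophages and monocytes, against 0.111 without it.

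The H2-DM genes were the members that passed between MHC-IIlo macrophages and monocytes, all lower in the macrophages. H2-DMa and H2-DMb1 were highest in CCR2+ and MHC-IIHi macrophages, intermediate in monocytes and lowest in MHC-IIlo macrophages. H2-DMb2 was highest in CCR2+ macrophages, next in monocytes and lower in both CCR2-negative macrophage groups.

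H2-DMa, the α chain, read 6.10, 5.60, 5.75 and 5.80 in CCR2+ and 5.75, 5.38, 5.82 and 5.72 in MHC-IIHi macrophages. The monocytes read 5.27, 4.81, 5.14 and 4.91, and the MHC-IIlo macrophages 4.51, 3.86, 4.22 and 4.73. The monocyte arrays lay below every class II high array and above every MHC-IIlo array. MHC-IIlo macrophages were below monocytes by -0.71 ± 0.21 log2 units, a 1.63-fold difference (limma adjusted p = 0.0221), and below MHC-IIHi macrophages by 2.53-fold (adjusted p = 0.0186). The first call was lost without monocyte replicate 1 or 3, without MHC-IIlo replicate 2 or 3, under quantile or median scaling, and in a fit of the 2 groups alone, with adjusted p up to 0.251. The call against MHC-IIHi macrophages was lost under 7 of 26 alternatives (adjusted p up to 0.423). MHC-IIHi macrophages exceeded monocytes by 0.64 ± 0.21 (adjusted p = 0.0385), a call lost under 10 of 26 alternatives. Those were median scaling, the fit of the 2 groups alone, array weights, and the fits without CCR2+ replicate 4, monocyte replicates 2, 3 or 4, or MHC-IIHi replicates 1, 3 or 4, with adjusted p up to 0.232.

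H2-DMb1, a β chain gene of H2-DM, read 5.14, 4.83, 5.34 and 4.86 in CCR2+ and 5.04, 4.64, 5.24 and 4.78 in MHC-IIHi macrophages. It read 4.11, 4.21, 4.28 and 3.80 in monocytes and 3.50, 2.91, 3.30 and 3.63 in MHC-IIlo macrophages. The order was that of H2-DMa, again without overlap between the 3 levels. MHC-IIlo macrophages were below MHC-IIHi macrophages by 3.01-fold (1.59 ± 0.21, limma adjusted p = 0.0166) and below monocytes by 1.70-fold (-0.76 ± 0.21, adjusted p = 0.0146). The call against monocytes was lost without MHC-IIlo replicate 2 and in 3 other alternatives (adjusted p up to 0.29). The call against MHC-IIHi macrophages was lost under 6 of 26 alternatives (adjusted p up to 0.397). CCR2+ macrophages exceeded monocytes by 0.94 ± 0.21 (adjusted p = 0.00409).

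A second H2-DMb1 probe matched the promoter window of H2-DMb1 from base -27 to base 33 around the annotated start, with 58 of 60 bases identical. The 2 differences were G17A and T46A, with the window's base first and positions counted from the 5′ end of the probe. The stretch from position 17 to 46 is shown because its 2 ends are those differences.

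H2-DMb1 second probe: AggatttggttgagttactgggtacaagtA

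This probe read between -3.35 and -2.71 on all 16 arrays and was not well above background on 2 monocyte arrays. Its difference between MHC-IIHi and MHC-IIlo macrophages was -0.14 ± 0.16 (SE), so that it did not follow the brighter probe. Averaging both probes reduced the H2-DMb1 difference of those groups from 1.59 to 0.73.

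H2-DMb2, the other β chain gene, lies next to H2-DMb1 on chromosome 17 with no annotated gene between them. The probes of the 2 genes share no stretch longer than 5 bases. H2-DMb2 read 2.66, 1.43, 1.52 and 1.76 in CCR2+ macrophages and 0.89, 0.27, 1.08 and 0.67 in monocytes. The MHC-IIHi macrophages read 0.95, -0.39, -0.84 and 0.04, and the MHC-IIlo macrophages -0.26, -1.34, -1.63 and -0.85. All CCR2+ arrays lay above all 12 other arrays, and replicate 1 was the highest macrophage array of each population. H2-DMb2 was the only member that passed between CCR2+ and MHC-IIHi macrophages, by 1.90 ± 0.39 log2 units or 3.74-fold (limma adjusted p = 0.0243). The difference within slides was 1.72 to 2.36. The call was lost under median scaling, in a fit of the 2 groups alone, and without CCR2+ replicate 1 or 4 or MHC-IIHi replicate 2, 3 or 4, with adjusted p up to 0.0942. CCR2+ macrophages exceeded MHC-IIlo macrophages by 7.28-fold (2.86 ± 0.39, adjusted p = 0.000505), and MHC-IIlo macrophages were below monocytes by 3.36-fold (-1.75 ± 0.39, adjusted p = 0.00398). Both of these passed under all 26 alternatives.

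The difference of 0.96 ± 0.39 between MHC-IIHi and MHC-IIlo macrophages did not pass for H2-DMb2 (limma adjusted p = 0.9999), although it was positive on 4 of 4 slides. CCR2+ macrophages exceeded monocytes by 1.12 ± 0.39 (adjusted p = 0.0536), which passed with the replicate block (adjusted p = 0.00428) and under 10 of 26 alternatives in all. With the block MHC-IIHi macrophages were also below monocytes in H2-DMb2 (-0.79 ± 0.39, adjusted p = 0.0289, against 0.192 without it).

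H2-DMb2 minus H2-DMb1 on the same array is free of any scaling factor for the whole array. It was -2.48, -3.40, -3.82 and -3.09 in CCR2+ macrophages and -4.10, -5.03, -6.08 and -4.74 in MHC-IIHi macrophages. In MHC-IIlo macrophages it was -3.76, -4.25, -4.93 and -4.49, and in monocytes -3.21, -3.94, -3.20 and -3.14. The CCR2+ and MHC-IIHi arrays did not overlap, with a mean difference of 1.79, and neither did the MHC-IIHi arrays and the monocytes, with -1.61. The exact two-sided permutation p was 0.0286 for each, which is the smallest that 4 arrays against 4 allow, and 0.0857 after Benjamini-Hochberg adjustment over the 6 group pairs. With that design and adjustment no pair passed. That test ignores the slides. Within slides the difference between CCR2+ and MHC-IIHi macrophages was 1.61, 1.62, 2.26 and 1.65, and that between CCR2+ and MHC-IIlo macrophages was 1.28, 0.84, 1.11 and 1.40. Sign flips within 4 slides cannot give an exact two-sided p below 0.125, so the paired test cannot pass either. The difference between MHC-IIHi and MHC-IIlo macrophages was -0.63 (exact permutation p = 0.257, adjusted p = 0.309), and it was negative on 4 of 4 slides.

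The ratio of the α chains H2-DMa and H2-Aa is given without a test because the pair was picked after its values were seen. H2-DMa minus H2-Aa was 0.32, -0.32, -0.24 and -0.32 in monocytes and -0.97, -0.95, -1.11 and -0.77 in MHC-IIHi macrophages. These 2 groups did not overlap. In CCR2+ macrophages the difference was -0.39, -0.68, -0.76 and -0.52, which overlapped neither of them. In MHC-IIlo macrophages it was -0.69, -0.73, -0.09 and -0.96, which overlapped every other group.

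**Figure D3:**
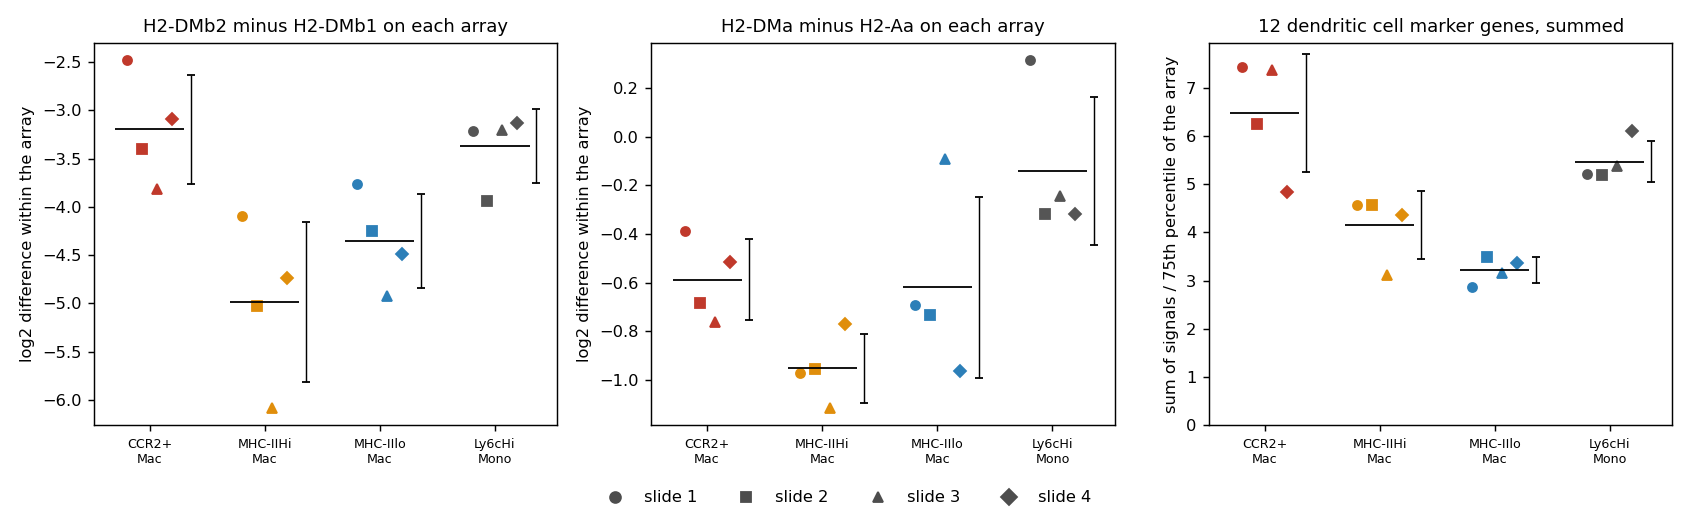
Left and middle, log2 differences between 2 genes on the same array for H2-DMb2 minus H2-DMb1 and H2-DMa minus H2-Aa; right, summed level of 12 dendritic cell marker genes in units of the array's 75th percentile. Lines are means, bars are SDs over 4 arrays and symbols mark the slide; H2-DMb2 minus H2-DMb1 lies above -3.9 on every CCR2+ array and below -4 on every MHC-IIHi array.

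Some markers of dendritic cells and monocytes were higher in CCR2+ than in the other macrophages, while the summed levels of T cell, endothelial and cardiomyocyte markers overlapped between the macrophage groups. The summed level of 12 conventional dendritic cell markers, in units of the array's 75th percentile, was 4.83 to 7.44 in CCR2+ macrophages and 5.20 to 6.10 in monocytes. It was 3.12 to 4.57 in MHC-IIHi macrophages and 2.86 to 3.49 in MHC-IIlo macrophages. Of the 12, 8 were well above background on all 4 CCR2+ arrays, and Xcr1 and Ccl22 were so on none. Dpp4, Cd209a and Ccl17 passed as higher in CCR2+ than in MHC-IIHi macrophages, with differences of 1.83 ± 0.30, 2.74 ± 0.62 and 1.80 ± 0.38 (limma). These were 3 of the 9 markers tested, against the 0.631% of all features higher in that comparison, and Batf3 passed against MHC-IIlo macrophages only. Compared with blood monocytes, CCR2+ macrophages were higher in Ccl17 and lower in Dpp4, and Cd209a did not pass. Dpp4 and Cd209a were lower in both CCR2-negative macrophage groups than in monocytes, so these 2 markers do not separate dendritic cells from monocytes here. Flt3 did not pass, and Zbtb46 was -0.36 ± 0.27 between CCR2+ and MHC-IIHi macrophages, which did not pass either. The summed level of 5 monocyte markers was 6.28 to 24.3 in CCR2+ macrophages, 2.71 to 3.50 in MHC-IIHi, 2.86 to 3.76 in MHC-IIlo, and 151 to 209 in monocytes. Of the 5, 4 (Ly6c1, Plac8, Ccr2 and Chil3) passed as higher in CCR2+ than in MHC-IIHi macrophages, against the same 0.631% of all features. Ccr2 encodes the protein that the gate used, so its call and its part of the sum follow from the sort. The part of dendritic cell or monocyte RNA in the H2-DMb2 difference was not tested.

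Of the H2-O genes, H2-Ob passed in 3 comparisons and H2-Oa in none. H2-Ob, the β chain, read 1.49, 0.68, 1.04 and 0.92 in CCR2+ and 0.84, 0.86, -0.01 and 0.84 in MHC-IIHi macrophages. It read -0.22, -0.67, -0.33 and 0.13 in MHC-IIlo macrophages and -1.18, -0.97, -0.44 and -0.29 in monocytes. The monocytes had the lowest mean, where H2-DMb2 and H2-Oa had the MHC-IIlo macrophages lowest. CCR2+ macrophages exceeded monocytes by 1.75 ± 0.27, or 3.37-fold (limma adjusted p = 0.000265), and MHC-IIHi macrophages exceeded them by 1.35 ± 0.27 (adjusted p = 0.00192). CCR2+ macrophages exceeded MHC-IIlo macrophages by 1.30 ± 0.27 (adjusted p = 0.0151), a call lost without CCR2+ replicate 1 or MHC-IIlo replicate 2 (adjusted p up to 0.0555). The 0.90 ± 0.27 between MHC-IIHi and MHC-IIlo macrophages did not pass (adjusted p = 0.618).

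A second H2-Ob probe read -0.79, -1.12, -0.64 and -1.20 in CCR2+, -1.16, -1.18, -1.005 and -1.48 in MHC-IIHi, and -2.04, -3.27, -2.72 and -3.02 in MHC-IIlo macrophages. Only 1 of the 4 monocyte arrays was well above background for it. The MHC-IIHi and MHC-IIlo arrays did not overlap on this probe, and their difference was 1.56 ± 0.44 (SE), which did not pass when every kept probe was fitted (limma adjusted p = 0.46). The remaining H2-Ob probe was well above background on 2 arrays, both of MHC-IIHi macrophages, and was not tested.

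H2-Oa, the α chain, read -0.09, -0.76, -0.82 and -1.42 in CCR2+ macrophages and -0.92, -1.31, -1.49 and -0.94 in monocytes. It read -0.65, -1.36, -3.22 and -1.43 in MHC-IIHi and -2.15, -3.79, -1.55 and -1.58 in MHC-IIlo macrophages. The lowest MHC-IIHi value was not well above background. The CCR2+ arrays lay above all MHC-IIlo arrays, by 1.496 ± 0.53, which did not pass (limma adjusted p = 0.215). No comparison passed for H2-Oa, whose SD was 1.09 in MHC-IIHi and 1.05 in MHC-IIlo macrophages.

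H2-O is best known from B cells. Of 10 B cell markers, 5 or 6 were well above background on all 4 arrays of each group, and Ms4a1 was so on none of the 16 arrays. The summed level of the 10 was 18.7 to 40.8 in CCR2+, 24.3 to 47.9 in MHC-IIHi, 19.6 to 57.7 in MHC-IIlo macrophages and 26.8 to 47.9 in monocytes. These ranges followed the slide, as replicates 2 and 4 lay above replicates 1 and 3 in every group. Of 8 B cell markers tested, Cd79b alone passed in a macrophage comparison, against 1.51% of all features higher in it. It was 0.99 ± 0.25 higher in CCR2+ than in MHC-IIlo macrophages (limma adjusted p = 0.0489). Cd79b also passed as lower in MHC-IIlo macrophages than in monocytes, where 11.4% of all features were lower.

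**Figure D4:**
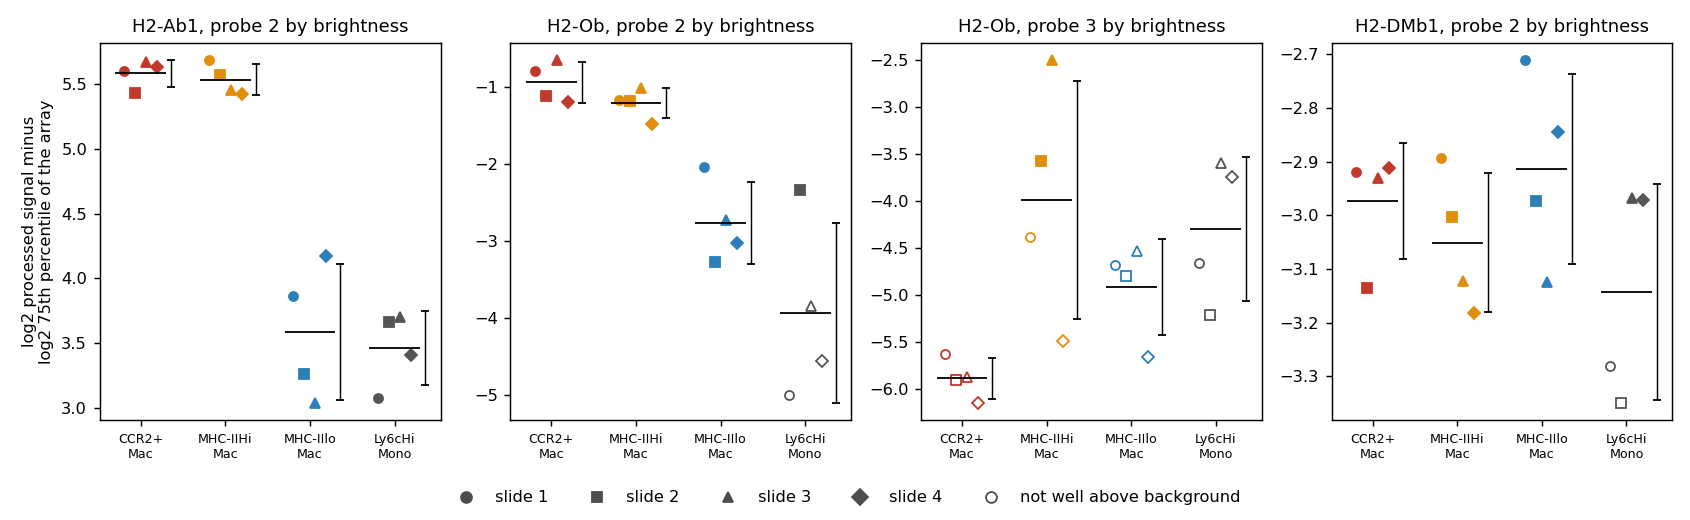
Levels of 1 dimmer probe each of H2-Ab1 and H2-DMb1 and of both dimmer H2-Ob probes on each of 16 arrays (log2 processed signal minus log2 75th percentile of the array); open symbols are not well above background, lines are means and bars are SDs over 4 arrays. The second H2-Ab1 and H2-Ob probes fall from the class II high to the other groups, and the second H2-DMb1 probe stays between -3.35 and -2.71.

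Counted together, 33 of 60 differences of the 10 genes passed, but the 60 come from overlapping pairs of the same 4 groups. Over all features 0.0182% to 12% passed in 1 direction, depending on the pair, so each pair is given with its own share. Between MHC-IIHi and MHC-IIlo macrophages 6 of 10 genes were higher (H2-Aa, H2-Ab1, H2-Eb1, Cd74, H2-DMa and H2-DMb1) and none was lower. Over all features 12 passed as higher, or 0.0545%, and 4 as lower, or 0.0182%, so 6 of the 12 higher features were members. The median difference was 1.18 over the members and 0.00 over all features. This count depended on single arrays and on the fit. Without MHC-IIHi replicate 1, MHC-IIlo replicate 2 or MHC-IIlo replicate 3 it was 0, without MHC-IIHi replicate 3 or 4 it was 2 and 1, in a fit of the 2 groups alone it was 0, and under median scaling it was 1.

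Between CCR2+ and MHC-IIlo macrophages 9 genes were higher, H2-Oa being the exception, and none was lower. The count was 7 or 8 in every fit that left out 1 array and 6 in a fit of the 2 groups alone. The background was 1.51% of features higher and 1.3% lower, and the median difference was 1.49 over the members and -0.04 over all features. Between CCR2+ and MHC-IIHi macrophages 1 gene, H2-DMb2, was higher and none lower, against 0.631% of features higher and 0.627% lower. The members' median difference there was 0.06.

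Against monocytes, 7 genes were higher in CCR2+ macrophages (all but Ciita, H2-DMb2 and H2-Oa) and the same number in MHC-IIHi macrophages. The background of the first comparison was 9.88% of features higher and 12% lower, and of the second 10.1% and 11.5%. Both macrophage groups were gated as class II high, so these 2 counts depend in part on the sort. In MHC-IIlo macrophages no member was higher than in monocytes and 3 were lower, H2-DMa, H2-DMb1 and H2-DMb2, against 10% of features higher and 11.4% lower. The last count was 1 without MHC-IIlo replicate 2 and 1 in a fit of the 2 groups alone. These comparisons share the monocyte arrays. Heart macrophages also differed from blood monocytes in cardiomyocyte markers, whose summed level was 16.4 to 30.1 in the macrophage groups and 1.91 to 2.49 in monocytes. For fibroblast markers it was 2.82 to 8.71 in macrophages and 0.379 to 0.905 in monocytes. The part of such RNA in the differences was not tested.

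**Figure D5:**
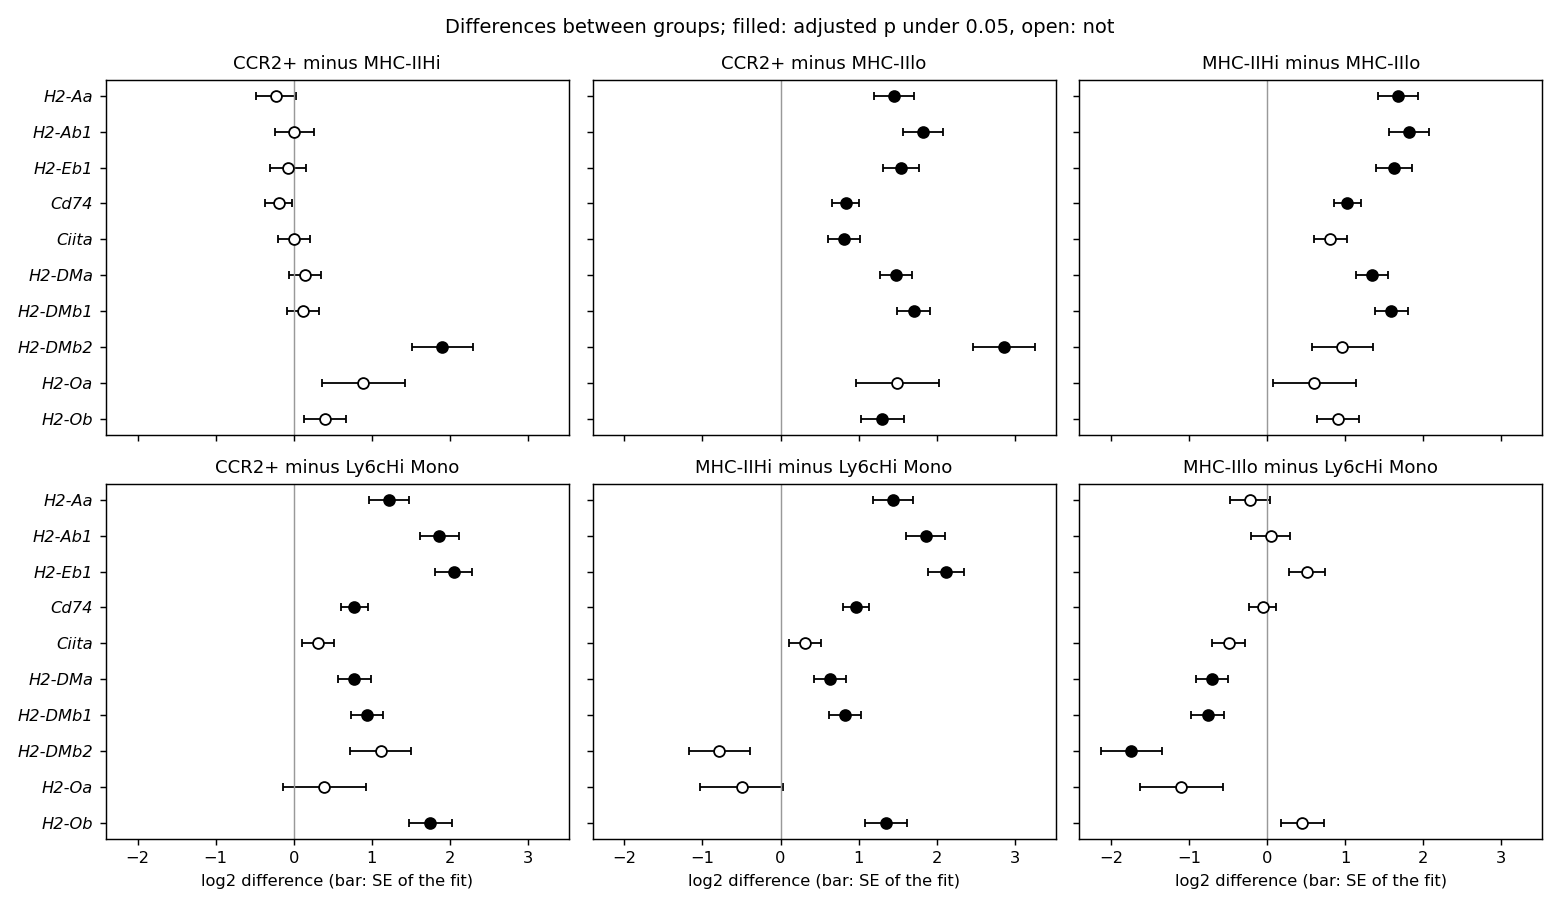
Log2 difference of each of the 10 genes in each of 6 group pairs, with the SE of the fit over 16 arrays; filled points have an adjusted p under 0.05. In CCR2+ minus MHC-IIHi the single filled point is H2-DMb2, and in MHC-IIlo minus monocytes the 3 filled points are the H2-DM genes, all below 0.

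Other genes of the pathway were read from lists chosen by function. They held 17 tested genes of class II transcription, 11 of endosomal proteases and peptide generation, 7 of surface turnover and Cd74 partners, and 4 of costimulation. None of these passed between any of the macrophage populations, where 0.0182% to 1.51% of all features passed in either direction, so that a count of 0 is near the background. Rfx5, a subunit of the X box factor, differed by -0.07 ± 0.36 between MHC-IIHi and MHC-IIlo macrophages (limma adjusted p = 0.9999). It exceeded background on 0 of 4 monocyte arrays. Irf8, a myeloid transcription factor, differed by 0.50 ± 0.20 in the same comparison, which did not pass (adjusted p = 0.9999). The medians of the 4 lists in that comparison were 0.12, 0.03, -0.12 and 0.18.

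Against monocytes the lists were mixed. Over all features, 9.88% passed as higher and 12% as lower in CCR2+, 10.1% and 11.5% in MHC-IIHi, and 10% and 11.4% in MHC-IIlo macrophages. For the 17 class II transcription genes, counts of 1 higher and 2 to 4 lower are close to those shares. Of 17 class II transcription genes tested, 1 was higher and 4 were lower in MHC-IIlo macrophages, 1 was higher and 2 were lower in MHC-IIHi macrophages, and 1 was higher and 3 were lower in CCR2+ macrophages. The higher gene was Socs1, an inhibitor of cytokine signalling, at 1.75 ± 0.26 in CCR2+ macrophages (limma adjusted p = 0.000193). Ifngr1, a chain of the interferon-γ receptor, and Jak2, a kinase of that receptor, were lower in all 3 macrophage groups, Ifngr1 by -1.02 ± 0.20 in CCR2+ macrophages (adjusted p = 0.00204). Irf8 was -1.05 ± 0.20 in MHC-IIlo macrophages (adjusted p = 0.00098).

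Of 11 endosomal protease and peptide generation genes, 3 were higher and 1 was lower in CCR2+ macrophages than in monocytes, 4 and 1 in MHC-IIHi, and 5 and 2 in MHC-IIlo macrophages. The background was 9.88% to 10.1% of all features higher and 11.4% to 12% lower. Lgmn, an endosomal protease, was higher by 2.01 ± 0.18, 2.19 ± 0.18 and 2.31 ± 0.18 in the 3 groups (limma adjusted p = 1.3e-06 or less). Ifi30, the thiol reductase of endosomes, was lower in all 3, by -0.69 ± 0.23 in CCR2+, -0.90 ± 0.23 in MHC-IIHi and -1.002 ± 0.23 in MHC-IIlo macrophages. Ctss, the protease that trims the invariant chain, was lower in MHC-IIlo macrophages (-0.61 ± 0.18, adjusted p = 0.0234). In CCR2+ and MHC-IIHi macrophages its differences of -0.47 and -0.44 did not pass.

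Of 7 genes for surface turnover and Cd74 partners, Marchf8, Cd83 and Mif were higher in all 3 macrophage groups than in monocytes. Over all features 9.88% to 10.1% passed as higher and 11.4% to 12% as lower. Cd83, which stabilises class II at the surface, was higher by 3.91 ± 0.40 in CCR2+, 4.198 ± 0.40 in MHC-IIHi and 3.58 ± 0.40 in MHC-IIlo macrophages. Marchf1, the ligase that removes class II from the surface, was lower in CCR2+ (-1.004 ± 0.20, limma adjusted p = 0.00184) and MHC-IIHi macrophages (-0.62 ± 0.20, adjusted p = 0.035), and differed by -0.50 ± 0.20 in MHC-IIlo macrophages, which did not pass (adjusted p = 0.0905). Of 4 costimulation genes tested, Cd86 and Icosl were higher in all 3 macrophage groups, against the same 9.88% to 10.1% of features. Cd86 was higher by 2.61 ± 0.29 in CCR2+, 3.40 ± 0.29 in MHC-IIHi and 3.17 ± 0.29 in MHC-IIlo macrophages, and its difference between CCR2+ and MHC-IIHi macrophages, -0.79 ± 0.29, did not pass (adjusted p = 0.312).

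The genes most like H2-Aa, H2-Ab1, H2-Eb1 and Cd74 were ranked by Pearson's r over the 16 arrays with the mean of those 4 genes, each centred on its own mean. The 16 points fall into 4 sorted groups, and r is a description without a test. Members and features without a symbol were left out of the ranking. The 8 highest of the remaining genes were Grin3b (r = 0.95), Cps1 (0.93), D830013O20Rik (0.92), Slco4a1 (0.92), Evc (0.90), Tle1 (0.88), Tgfbr1 (0.88) and Gm8777 (0.87). Grin3b had means of 2.81 in CCR2+, 2.41 in MHC-IIHi, 0.84 in MHC-IIlo macrophages and 0.78 in monocytes. Cps1 had 2.41, 1.99, 0.02 and -0.12. Among the other members r was 0.85 for H2-DMa, 0.88 for H2-DMb1, 0.86 for H2-Ob, 0.66 for Ciita, 0.42 for H2-DMb2 and 0.25 for H2-Oa.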

How the data were processed

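Each of 16 samples was hybridised as 1 colour (red) to an Agilent mouse array. Agilent Feature Extraction 11.5.1.1 is named in the submitters' processing notes; the deposited scanner intensity values are background-subtracted processed signals, per the file headers. Partek is also named there, and its role is not given in the sources used here. In all 16 files the headings of the text columns are shifted, so probe names and gene symbols were located by their contents. Of 39429 probes, 27508 were named through RefSeq accessions, and others keep the file's symbol.

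Spots marked by the scanner software were left out, spots of a probe were averaged, log2 processed signals were scaled to each array's 75th percentile, and probes well above background on at least 4 of 16 arrays were kept (27643). Genes were read from the brightest kept probe and fitted with limma 3.58.1 (R 4.3.3), with 1 mean per group. limma was tested on simulated data. The number of arrays limits the precision. Deviations from the group means of same-numbered arrays, which share a slide per the file headers, correlated at 0.14 to 0.64 in 24 of 24 pairs of arrays, so the numbers pair the arrays. Where the replicate block changes a call, its value is given. The H2-DMb2 to H2-DMb1 difference was tested by exact permutation.

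Every member was named with all its probes. Genes of the 4 pathway lists were to be named if they passed among macrophages (none did). Also to be named were the gate genes, Rfx5, Ctss, Ifi30, Marchf1 and Cd86, and the 8 non-member genes with a symbol most like the class II chains and Cd74. Irf8, Socs1, Ifngr1, Jak2, Lgmn, Marchf8, Cd83, Mif, Icosl and the markers named were chosen after their values were seen. Members and lists were chosen with earlier results of these data known. Alternatives were the replicate block, normexp (offset 50), quantile and median scaling, filters, probe summaries, 2 groups only, array weights, and leaving out each array. The authors' series table was not used.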

Additional observations from a re-analysis of the deposited data

Results flagged for a closer look

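H2-Ob in MHC-IIHi macrophages had 1 array far from the other 3. Replicate 3 read -0.011, where the nearest of the others read 0.84, and that gap was 0.98 of the group's whole range. It was the only such case among 40 combinations of gene and group, of which chance would pick out about 1 in 20. On the second H2-Ob probe the same array read -1.005, the highest of its group.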

How the results depend on the processing

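Over 26 alternatives, 1432 of 1560 values for the 60 member differences stayed on their side of the threshold, 106 lost and 22 gained the call, and 0 called differences changed sign, while 9 differences that did not pass changed sign in at least 1 alternative; where not named here, the cause was not tested. Of the 10 genes, the number past the threshold between CCR2+ and MHC-IIHi macrophages fell from 1 to 0 under median scaling and in a fit of the 2 groups alone, and was 0 to 1 when 1 array was left out. Between MHC-IIHi and MHC-IIlo macrophages it fell from 6 to 1 under median scaling and to 0 with the 2 groups alone, and was 0 to 6 with 1 array left out. Between MHC-IIlo macrophages and monocytes it fell from 3 to 1 with the 2 groups alone, and was 1 to 3 with 1 array left out. A fit of 2 groups alone has fewer arrays behind its spread.

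With the replicate block, features past the threshold numbered 552 against 277 (CCR2+ and MHC-IIHi), 1273 against 618 (CCR2+ and MHC-IIlo), 7442 against 4824 (CCR2+ and monocytes), 77 against 16 (MHC-IIHi and MHC-IIlo) and 7093 against 4720 (MHC-IIlo and monocytes). The block gave calls to H2-DMb2 and Ciita in 2 comparisons each (adjusted p = 0.00428, 0.0289, 0.0316 and 0.0137) and changed no other call of the members. Median scaling gave 173 (CCR2+ and MHC-IIHi), 385 (CCR2+ and MHC-IIlo) and 9 (MHC-IIHi and MHC-IIlo), and array weights gave 955, 1204 and 92 in the same order. The 2 groups alone gave 336 between CCR2+ and MHC-IIlo and 0 between MHC-IIHi and MHC-IIlo macrophages, and no filter on dim probes gave 8563 between CCR2+ macrophages and monocytes. With 1 array left out, features numbered 156 to 343 between CCR2+ and MHC-IIHi macrophages and 0 to 18 between MHC-IIHi and MHC-IIlo macrophages.

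Against monocytes, normexp moved the median of all features to -0.25, -0.20 and -0.22, and the split between CCR2+ macrophages and monocytes from 2174 higher and 2650 lower to 1566 and 3643. Values not well above background limit H2-Oa and the dimmer probes. A paired test of H2-DMb2 minus H2-DMb1 by slide, chosen after seeing the data, cannot pass with 4 slides.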
